A study of Bos taurus with 8 samples.

Results

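Embryos made by in vitro fertilisation (IVF) were compared with cloned embryos made by somatic cell nuclear transfer (SCNT) at the eight-cell stage in cattle. The comparison used 6 of the 8 libraries of the series, the 3 titled as IVF and the 3 titled as SCNT without KDM4E overexpression. It covered 14166 of 21258 gene features, those with at least 1 FPKM in at least 2 of these 6 libraries. FPKM is the number of fragments assigned to a gene, divided by transcript length and library size. The filter set 7092 features aside, and 1792 of those it kept had passed through IVF libraries alone and 1033 through SCNT libraries alone.

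Each library was made from a pool of 8 Holstein embryos, so differences between single embryos were averaged. In IVF the egg is fertilised with sperm, and in SCNT the egg's own chromosomes are removed and the nucleus of a body cell is put in their place. The libraries of both groups carry no overexpressed gene or added agent in their labels, and the series names SCNT as the control group. The labels give no donor cell, embryo sex, hours of culture or separate batches of embryos for these pools, so the p-values measure the spread between these pools, which may be technical.

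An early embryo starts with RNA and protein that the egg stored, and it clears much of that RNA while its own genes come on. In cattle the main wave of embryonic transcription starts at about the eight-cell stage. A transferred nucleus must leave the programme of its donor cell and start that wave in the same egg cytoplasm.

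Depth is unknown, because the files hold FPKM without counts. Between 10975 and 12642 features per library reached 1 FPKM, and total FPKM lay between 702294 and 844175. Mitochondrially encoded transcripts took 6.08% to 7.11% of FPKM in the IVF libraries and 7.54% to 10.6% in the SCNT libraries. The 10 most abundant genes took 24.7% to 25.7% in IVF and 15.8% to 20.9% in SCNT. Across genes, which are no independent replicates, Spearman's rho was 0.886 to 0.927 within IVF, 0.916 to 0.934 within SCNT and 0.574 to 0.663 between them.

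More than 6 in 10 of the genes measured differed between the groups. Limma called 8837 of 14166 genes at a Benjamini-Hochberg adjusted p under 0.05, which is 62.4% of those tested. Of these, 5282 (37.3%) were higher in IVF and 3555 (25.1%) were lower. Differences are IVF minus SCNT on the log2(FPKM + 1) scale, with standard errors, and understate the change of low genes. The libraries of the groups did not overlap for 9406 genes (66.4%). At least a 4-fold difference was called for 1787 genes higher in IVF and 1566 lower, and at least a 16-fold difference for 26 higher and 241 lower. The falls therefore reached further than the rises, as the plot of difference against level shows.

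The balance of the directions depended on scaling. The median difference of all genes was 0.41, and other scalings put it between 0.09 (median-ratio) and 0.55 (1 total per library). The share of called genes that were higher in IVF was 59.8% with FPKM as deposited and 49.2% with median-ratio scaling, which called 4180 higher and 4316 lower. List medians, where given below, are therefore read against 0.41, and list counts against the 37.3% higher and 25.1% lower of all genes tested. Where a list's balance of calls turned under another scaling, this is said beside the list.

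**Figure D1:**
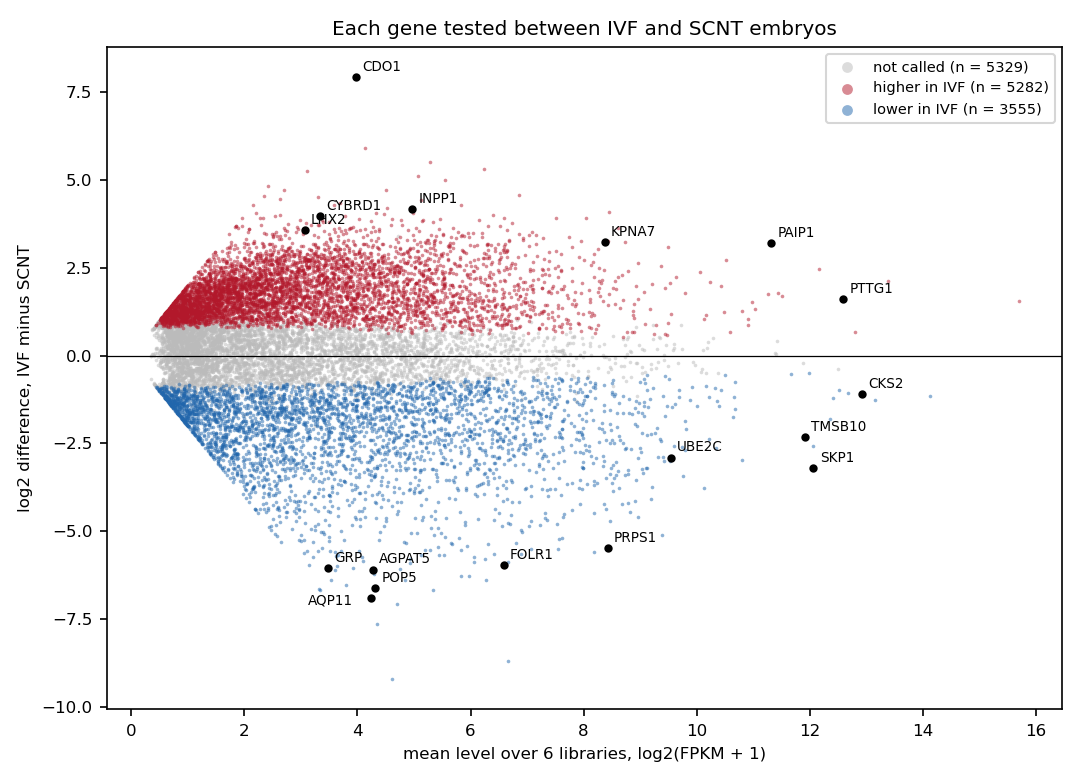
Each point is a gene, with its mean level over the 6 libraries in log2(FPKM + 1) on the horizontal axis and its log2 difference, IVF minus SCNT, on the vertical axis. Red points are the 5282 genes called higher in IVF, blue the 3555 called lower and grey those not called, and the lower edge of the cloud reaches further from 0 than the upper edge.

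The 15 largest rises outside the maternal and ribosomal lists were led by CDO1. CDO1, which oxidises cysteine (chromosome 10, 4598736 to 4606922, UMD3.1), stood at 306, 195 and 241 FPKM in IVF replicates 1 to 3 and was listed at 0, 0 and 0.01 FPKM in the SCNT replicates, and all values below keep that order. It was the only gene at 20 FPKM or more in every IVF library and under 0.1 FPKM in every SCNT library. A value of 0 without counts can be a failed estimate. The nearby ATG12 feature also carries the description of CDO1, and stood at 57.2 to 67 FPKM in IVF against 281 to 318 in SCNT. Whether reads were divided between these features was not tested. CYBRD1, a membrane reductase of iron uptake, stood at 45.5, 32.4 and 39.5 FPKM in IVF against 0.93, 1.42 and 2.56 in SCNT (log2 difference 3.96 ± 0.33, limma adjusted p = 6.36e-06). AADAT, an aminotransferase that acts on kynurenine and aminoadipate, stood at 104, 55.2 and 60 FPKM in IVF against 5.6, 7.82 and 1.14 in SCNT (3.83 ± 0.49, adjusted p = 8.37e-05). Groups whose libraries do not overlap were a condition for entering the 15, so their separation is no separate result.

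Inositol and nucleotide phosphatases were among the same rises. INPP1, which removes a phosphate from inositol phosphates, stood at 120, 123 and 155 FPKM in IVF against 6.65, 8.73 and 4.34 in SCNT. BPNT1, a related phosphatase, stood at 33.8, 45.2 and 28 FPKM in IVF against 1.63, 2.44 and 1.24 in SCNT (3.72 ± 0.33, adjusted p = 7.93e-06). PKIA, a peptide inhibitor of protein kinase A, differed by 3.66 ± 0.43, and its feature overlaps an unannotated locus. The transcriptional repressor ETV6 (3.74 ± 0.31) and GTF2IRD2 (3.85 ± 0.39) were the transcription factors in this set. PDE6C (3.72 ± 0.53) and CD3G (3.87 ± 0.33), known from cone photoreceptors and T cells, were there as well, with PDE6C at 22.3, 90.8 and 21 FPKM in IVF against 2.03, 2.81 and 0.77 in SCNT. LDHA, SELENBP1, GDF3, ANAPC11 and TUBG2 complete the 15.

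The 15 largest falls were led by AQP11, ZFP42 and POP5. AQP11, a channel of intracellular membranes (chromosome 29), stood at 0.34, 0.35 and 1.81 FPKM in IVF against 300.2, 124 and 230 in SCNT (-6.90 ± 0.41, adjusted p = 9.13e-07). FOLR1, the folate receptor of the cell surface, stood at 12.8, 4.36 and 23.3 FPKM in IVF against 894, 618 and 792 in SCNT (-5.97 ± 0.46, adjusted p = 3.69e-06). GRP, the precursor of the neuropeptide gastrin-releasing peptide, stood at 0.44, 0.45 and 0.21 FPKM in IVF against 116, 75.9 and 82.2 in SCNT (-6.06 ± 0.31, adjusted p = 4.82e-07). Of these 3 genes AQP11 was the most uneven within SCNT, and separate groups were again a condition for entering the 15.

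Other genes of this set act on lipids, RNA and the cytoskeleton. AGPAT5, an acyltransferase of phospholipid synthesis, stood at 0.94, 1.29 and 1.87 FPKM in IVF against 181, 139 and 158 in SCNT. RND3, a small GTP-binding protein that counters actin stress fibres, stood at 2.57, 2.39 and 4.05 FPKM in IVF against 230, 231 and 245 in SCNT (-5.91 ± 0.27, adjusted p = 3.86e-07). POP5, a protein of ribonuclease P and MRP, stood at 0.72, 0.73 and 1.72 FPKM in IVF against 166, 189 and 243 in SCNT. FKBP11, a prolyl isomerase of the secretory pathway, differed by -5.95 ± 0.35. ZFP42, also known as REX1, differed by -6.66 ± 0.62, and its IVF value ranged from 0.83 to 12.8 FPKM. The other members of the 15 were TIMM10B, ATP23, RNASEK, SSSCA1, HIST1H2BJ, SPINK7 and HBG. SPINK7 varied widely within SCNT (165, 35.9 and 398 FPKM), TIMM10B and SPINK7 lie inside other annotated genes, and HIST1H2BJ and HBG have near copies that can share reads.

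There were 6 features at 20 FPKM or more in every SCNT library and under 0.1 in every IVF library. Among them DEFB123, a beta-defensin, was listed at 0 in all IVF libraries and stood at 33.7, 27.5 and 44 FPKM in SCNT. Others were ENSBTAG00000038783.2, described as similar to ribosomal protein L15, and 3 unannotated loci, 2 of them on the X chromosome. A value of 0 without counts can be a failed estimate, so no fold is given for these.

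**Figure D2:**
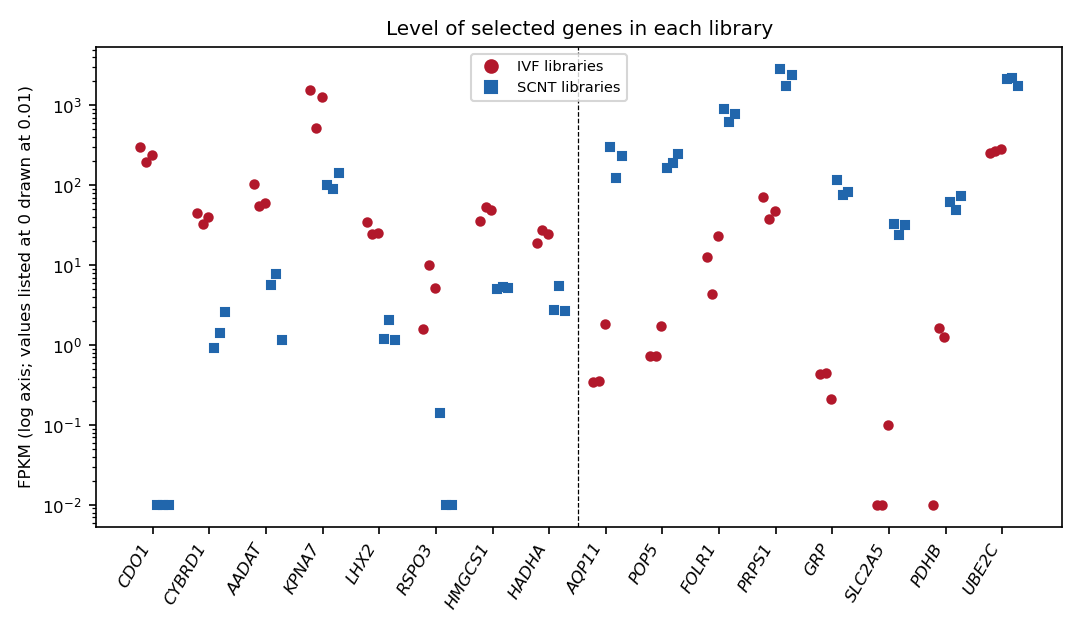
Level of 16 genes in each library, in FPKM on a log axis, with IVF libraries as red circles and SCNT libraries as blue squares. Genes to the left of the dashed line were higher in IVF and those to the right lower, values listed at 0 are drawn at 0.01, and for no gene do the groups overlap.

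The most abundant transcripts also changed places. A feature described as thymosin beta-4 on the X chromosome (ENSBTAG00000038488.2) led both groups, with 101255, 77519 and 96027 FPKM in IVF against 27076, 39760 and 27449 in SCNT. Its relative TMSB10, which also binds actin monomers, went the other way at 1985, 1564 and 1658 FPKM in IVF against 7795, 14041 and 5983 in SCNT (-2.33 ± 0.28, adjusted p = 5.59e-05). PAIP1, which binds the poly(A)-binding protein in translation, stood at 6621, 9967 and 7011 FPKM in IVF against 642, 1065 and 872 in SCNT (3.20 ± 0.24, adjusted p = 3.21e-06). SKP1, the adaptor of SCF ubiquitin ligases, stood at 1402, 994 and 2010 FPKM in IVF against 14727, 11445 and 13121 in SCNT (-3.21 ± 0.25, adjusted p = 3.88e-06).

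Both small CDK-binding proteins of the cell cycle were among these genes, in opposite directions. CKS1B was higher in IVF (1.68 ± 0.33, adjusted p = 0.00128) and CKS2 lower (-1.09 ± 0.17, adjusted p = 0.000283). Securin, PTTG1, which holds separase in check until anaphase, stood at 7663, 13273 and 12239 FPKM in IVF against 2685, 4696 and 3553 in SCNT. The histone variant H3F3B (-1.82 ± 0.18), a feature described as histone H2A.Z (ENSBTAG00000004428.3, -2.58 ± 0.19) and UBB, a polyubiquitin gene (-1.22 ± 0.29), were lower in IVF, and all have near copies in the genome. The oocyte genes BTG4, OOSP1 and DPPA3 were higher. POLR2J (1.77 ± 0.19) also carries the description of another protein in the files, so its identity is uncertain. MGC148328 and LOC781841, X-linked features described as spermatid transition proteins, were called lower (-1.07 ± 0.42 and -0.99 ± 0.35, adjusted p = 0.0460 and 0.0302), and both calls were lost on leaving out the second IVF pool, or either the second or the third SCNT pool, and that of MGC148328 also without the first IVF pool.

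Gene lists were then read by role. Outside the cytosolic ribosome, lower calls outnumbered higher calls in several lists of protein and RNA production. Of 75 mitochondrial ribosomal proteins, which translate the mitochondrial messages, 43 were lower and 8 higher, with a median of -1.15. MRPL30 stood at 6.64, 7.5 and 10.7 FPKM in IVF against 371, 321 and 316 in SCNT (-5.20 ± 0.27, adjusted p = 4.9e-07), while MRPL20 overlapped between the groups at 709 to 915 FPKM in IVF against 667 to 773 in SCNT (adjusted p = 0.486). MRPL27 (-4.47 ± 0.23), MRPS24 (-4.89 ± 0.31) and MRPL22 (-3.59 ± 0.25) were lower. The list took 0.624% to 0.732% of all FPKM in IVF and 1.23% to 1.41% in SCNT.

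Cytosolic aminoacyl-tRNA synthetases, which load tRNAs, were 10 lower and 5 higher of 23, with a median of -0.69. AIMP1, a scaffold of the multi-synthetase complex, stood at 6.14, 12.8 and 7.3 FPKM in IVF against 486, 315 and 423 in SCNT (-5.43 ± 0.31, adjusted p = 8.04e-07). YARS (-3.93 ± 0.57), QARS (-3.39 ± 0.37) and SARS (-2.27 ± 0.30) were lower, and RARS stood at 88 to 167 FPKM in IVF against 78.1 to 126 in SCNT (adjusted p = 0.577). Of 34 measured subunits and factors of RNA polymerases I and III, which make ribosomal and transfer RNA, 16 were lower and 3 higher (median -0.65). POLR1C, shared by both enzymes, stood at 3.44, 3.5 and 3.4 FPKM in IVF against 151, 78.8 and 129 in SCNT (-4.71 ± 0.31, adjusted p = 1.69e-06). POLR3F (-3.98 ± 0.35), POLR3E (-2.74 ± 0.31) and BDP1 (-2.76 ± 0.31) were lower, and POLR3K stood at 543 to 1021 FPKM in IVF against 468 to 640 in SCNT (adjusted p = 0.0910), called without IVF replicate 2.

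RNA surveillance genes were lower more often than higher. Of 23 measured genes of the RNA exosome and nonsense-mediated decay, 13 were lower and 1 higher, with a median of -0.92. EXOSC1, a cap subunit of the exosome, stood at 19.4, 28.1 and 34.3 FPKM in IVF against 279, 313 and 311 in SCNT (-3.45 ± 0.27, adjusted p = 4.04e-06). The exosome nucleases DIS3 (-1.74 ± 0.30) and DIS3L (-2.19 ± 0.33) and the decay factor UPF3B (-2.88 ± 0.32) were lower, and EXOSC8 stood at 338 to 698 FPKM in IVF against 286 to 325 in SCNT (adjusted p = 0.104).

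Among 18 genes that write, read or erase N6-methyladenosine on RNA, 7 were lower and 5 higher (median -0.33, and 6 each with 1 total per library), and related readers took opposite sides. YTHDF2, which promotes decay of methylated mRNA, stood at 26.3, 17.5 and 24.7 FPKM in IVF against 106, 107 and 121 in SCNT (-2.26 ± 0.26), and YTHDF3 differed by -1.18 ± 0.29. Of the IGF2BP readers, which stabilise mRNA, IGF2BP3 stood at 164, 169 and 162 FPKM in IVF against 22.5, 38.2 and 26.3 in SCNT (2.50 ± 0.27) and IGF2BP2 differed by 1.92 ± 0.31, but IGF2BP1 was lower (-2.91 ± 0.42). The demethylase ALKBH5 was higher in IVF (2.04 ± 0.30). Adjusted p for these 6 genes lay between 2.74e-05 and 0.00439.

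Genes of the piRNA pathway, in which small RNAs guide PIWI proteins to transposon transcripts in germ cells, came out higher in IVF where they were called. Of 18 measured, 10 were higher and 8 not called, with a median of 1.52. The 3 that had passed the filter through IVF libraries alone included TDRD9 and PIWIL1, and without these 3 8 of 15 were higher. MAEL, needed for transposon silencing in the germ line, stood at 260, 209 and 232 FPKM in IVF against 32.1, 18.4 and 27.4 in SCNT (3.15 ± 0.27, adjusted p = 7.57e-06). TDRD5 (3.04 ± 0.35), TDRD9 (2.35 ± 0.31) and the helicase MOV10 (2.68 ± 0.31) were higher too. Of the PIWI proteins, PIWIL3 stood at 15.4, 7.21 and 13.7 FPKM in IVF against 2.15, 2.94 and 3.78 in SCNT (1.68 ± 0.36, adjusted p = 0.00218) and PIWIL1 differed by 2.05 ± 0.36, while PIWIL2 overlapped (adjusted p = 0.296). GTSF1, a partner of PIWI proteins, stood at 272 to 321 FPKM in IVF against 354 to 438 in SCNT (adjusted p = 0.0791). Features described in the files with words for retroelements were 112 higher and 149 lower of 530, with a median of -0.11.

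**Figure D3:**
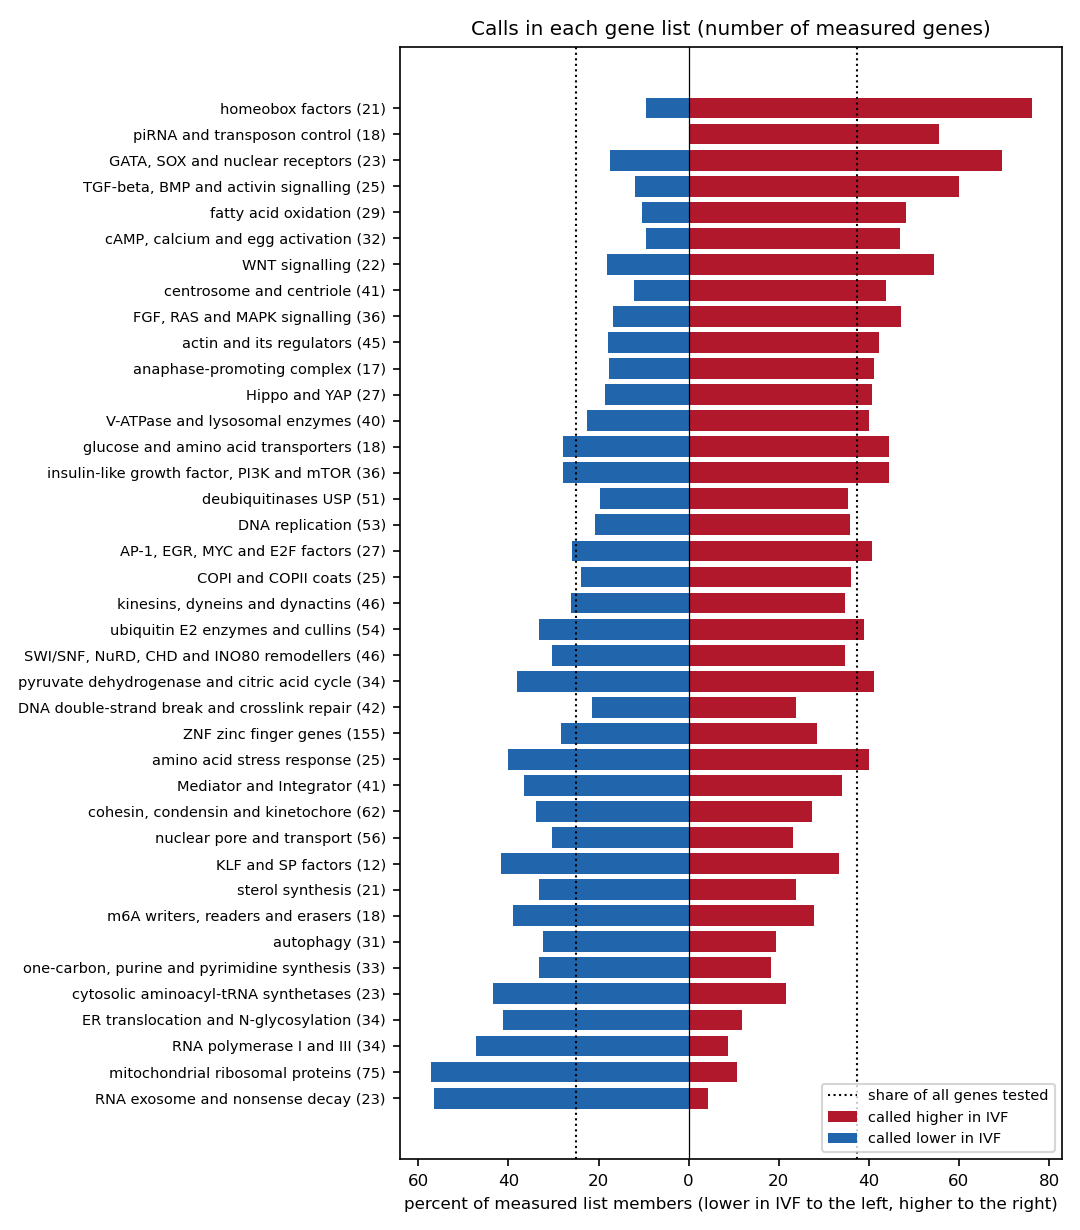
Bars give the percent of each list's measured members called higher in IVF (red, to the right) and lower (blue, to the left), and dotted lines give these shares over all genes tested, 37.3% and 25.1%. Homeobox factors and the piRNA list stand at the top, and RNA exosome genes and mitochondrial ribosomal proteins at the bottom.

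Cell division genes changed in both directions within the same complexes. Of 17 measured genes of the anaphase-promoting complex, the ubiquitin ligase that ends mitosis, 7 were higher and 3 lower. Median-ratio scaling turned this to 4 and 6. For this complex the shares were 41.2% higher and 17.6% lower, against 37.3% and 25.1% over all genes tested. ANAPC11, its RING subunit, stood at 340, 189 and 306 FPKM in IVF against 20.3, 16.9 and 16.4 in SCNT (3.85 ± 0.29, adjusted p = 3.11e-06), and ANAPC15 differed by 2.66 ± 0.23. UBE2C, the ubiquitin-conjugating enzyme that works with this complex, went the other way at 255, 272 and 286 FPKM in IVF against 2143, 2224 and 1769 in SCNT (-2.91 ± 0.20, adjusted p = 1.86e-06). FBXO5, its inhibitor, overlapped between the groups (122 to 145 FPKM in IVF against 126 to 197 in SCNT, adjusted p = 0.338).

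Cullins are the scaffolds of a large class of ubiquitin ligases, and 6 were measured. CUL2 stood at 2.3, 0.92 and 1.54 FPKM in IVF against 45.5, 27.2 and 41.3 in SCNT (-3.92 ± 0.34, adjusted p = 7.9e-06), and CUL1 (-1.96 ± 0.33), CUL3 (-1.40 ± 0.31) and CUL5 (-1.91 ± 0.31) were lower as well, while CUL4A (adjusted p = 0.0579) and CUL4B (adjusted p = 0.172) were not called. Across all 54 measured E2 enzymes and cullins, 21 were higher and 18 lower, which median-ratio scaling turned to 15 and 20. All found members together took 0.691% to 0.793% of FPKM in IVF and 2.29% to 2.63% in SCNT, where SKP1 was the largest item. Ubiquitin-specific proteases, which remove ubiquitin, were 18 higher and 10 lower of 51 (11 and 14 with median-ratio scaling). Without the 4 that passed the filter through a single group, they were 17 higher and 10 lower of 47. The shares of the 51 were 35.3% higher and 19.6% lower, near the 37.3% and 25.1% of all genes tested. USP44, a regulator of the spindle checkpoint, differed by 3.14 ± 0.43 and stood at 48.6, 63.3 and 58.3 FPKM in IVF against 2.9, 13 and 4.09 in SCNT. USP2 (2.40 ± 0.28), USP13 (2.46 ± 0.33) and USP46 (2.38 ± 0.30) were higher also.

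Centrosome genes were 18 higher and 5 lower of 41, with a median of 0.65, and 13 and 12 with median-ratio scaling. The shares were 43.9% higher and 12.2% lower, against 37.3% and 25.1% over all genes tested. CCP110, which caps centrioles, stood at 23.2, 49.7 and 22.4 FPKM in IVF against 4.6, 3.33 and 3.74 in SCNT (2.66 ± 0.36, adjusted p = 0.000118). CDK5RAP2 (2.25 ± 0.33) and NEDD1 (1.77 ± 0.27), which bring gamma-tubulin to the centrosome, were higher. Of the gamma-tubulin genes, TUBG2 stood at 603, 97.5 and 390 FPKM in IVF against 21.6, 21.8 and 20.2 in SCNT (3.68 ± 0.53), and TUBG1 overlapped between the groups (adjusted p = 0.977). These are near-identical genes, and reads may be split between them.

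Cohesin, condensin and kinetochore genes were 21 lower and 17 higher of 62, with a median of -0.23. STAG2, an X-linked cohesin subunit, stood at 2.82, 1.13 and 1.69 FPKM in IVF against 57, 49 and 61.7 in SCNT (-4.34 ± 0.32, adjusted p = 2.94e-06). The kinetochore protein MIS12 was lower (-3.74 ± 0.31) and CENPU higher (2.99 ± 0.28, 357 to 720 FPKM in IVF against 59.2 to 71.5 in SCNT). With 1 total per library the balance of this list turned to 17 lower and 19 higher. Among motors, DYNC1I1, a dynein intermediate chain known from neurons, stood at 55.2, 53.2 and 59.9 FPKM in IVF against 2.37, 9.32 and 2.15 in SCNT (3.58 ± 0.43), and its relative DYNC1I2 differed by 2.56 ± 0.22. The dynactin subunit DCTN2 was lower (-2.98 ± 0.33). The 46 kinesins, dyneins and dynactins were 16 higher and 12 lower, turned to 12 and 15 with median-ratio scaling. Without the 3 that passed the filter through a single group, they were 15 higher and 12 lower of 43. The shares of the 46 were 34.8% higher and 26.1% lower, near the 37.3% and 25.1% of all genes tested.

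DNA replication genes were 19 higher and 11 lower of 53, turned to 15 and 18 with median-ratio scaling. Their shares, 35.8% higher and 20.8% lower, lay near the 37.3% and 25.1% of all genes tested. ORC5, of the origin recognition complex, stood at 243, 260 and 325 FPKM in IVF against 41.2, 31.3 and 32.1 in SCNT (2.95 ± 0.25, adjusted p = 6.17e-06). DBF4, the activator of the kinase that fires origins, stood at 11.9, 9.4 and 7.81 FPKM in IVF against 85, 76.3 and 81.8 in SCNT (-2.95 ± 0.27, adjusted p = 1.1e-05). The primase subunit PRIM2 was higher (2.67 ± 0.26) and POLE4 lower (-2.39 ± 0.25). In break repair, RAD51C was higher (2.78 ± 0.25) and RIF1 (-3.45 ± 0.27), CHEK2 (-2.64 ± 0.31) and RNF168 (-2.42 ± 0.31) were lower. That list stood at 10 higher and 9 lower of 42, with 7 and 12 under median-ratio scaling.

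Nuclear transport factors took both directions, as did the importins named here, of which KPNA7 and KPNA1 were chosen after their values were seen. Importin alpha proteins bind nuclear localisation signals, and KPNA7 is the form known from eggs and early embryos. KPNA7 stood at 1565, 514 and 1291 FPKM in IVF against 99.4, 88.9 and 141 in SCNT, and KPNA2 stood at 929, 930 and 856 FPKM in IVF against 217, 154 and 190 in SCNT (2.28 ± 0.21, adjusted p = 1.24e-05). KPNA4 (-3.32 ± 0.31) and KPNA1 (-2.19 ± 0.37) were lower in IVF, KPNA4 at 7.58 to 15.5 FPKM in IVF against 98.2 to 123 in SCNT. The exporter XPO1 (-3.08 ± 0.23) and importin IPO5 (-3.90 ± 0.31) were lower, with no overlap between the groups' libraries. Over the 56 measured genes of the nuclear pore and transport, 17 were lower and 13 higher, with a median of 0.06. With 1 total per library there were 15 each.

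In metabolism, nucleotide synthesis genes took both directions. PRPS1, which makes the ribose donor of all nucleotides (X chromosome), stood at 70.5, 38.3 and 47.5 FPKM in IVF against 2873, 1746 and 2434 in SCNT (-5.48 ± 0.28, adjusted p = 4.9e-07). The purine enzymes PPAT (-3.44 ± 0.24), GART (-3.15 ± 0.33) and PAICS (-2.17 ± 0.26) and the pyrimidine enzymes CAD (-3.08 ± 0.34) and UMPS (-2.42 ± 0.30) were lower in IVF. GMPS, which makes GMP, stood at 64.3, 92.5 and 66.5 FPKM in IVF against 9.25, 10.1 and 8.13 in SCNT (2.88 ± 0.28), and TYMS, which makes thymidylate, and the folate enzyme MTHFD1 were higher as well (1.64 ± 0.39 and 2.02 ± 0.30). NME1 was lower (-3.86 ± 0.35) and its neighbour and near copy NME2 overlapped (adjusted p = 0.749). PPAT and PAICS overlap in the genome and can share reads. The list held 11 lower and 6 higher of 33 (median -0.25), and it took 0.204% to 0.222% of FPKM in IVF and 0.426% to 0.630% in SCNT. CAD reached 1 FPKM in SCNT libraries alone. Without the 3 members that passed the filter through a single group, 10 were lower and 6 higher of 30.

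Pyruvate dehydrogenase and the citric acid cycle divided between subunits, with 14 higher and 13 lower of 34 (10 and 15 with median-ratio scaling, 10 and 13 without IVF replicate 3). Pyruvate dehydrogenase takes pyruvate into the mitochondrial cycle. Its PDHB subunit read 0, 1.63 and 1.27 FPKM in IVF against 62.2, 48.8 and 73 in SCNT (-5.08 ± 0.40, adjusted p = 4.2e-06), and DLD (-3.80 ± 0.33) and PDHA1 (-1.83 ± 0.34) were lower. PDHX, which anchors DLD, was higher (2.89 ± 0.41), and so were the kinases that switch the complex off, PDK1 (2.08 ± 0.31) and PDK3 (2.11 ± 0.27). PDK3 stood at 161, 130 and 160 FPKM in IVF against 31.9, 43.9 and 27.9 in SCNT. Lactate dehydrogenases took opposite sides, LDHA at 1221, 537 and 543 FPKM in IVF against 27.1, 80.9 and 44.7 in SCNT and LDHB lower (-1.79 ± 0.28, adjusted p = 0.000315). SDHD (-4.50 ± 0.38) and MDH1 (-3.20 ± 0.27) were lower, SUCLG2 was higher (2.29 ± 0.26), and citrate synthase, CS, overlapped (adjusted p = 0.990).

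Fatty acid oxidation genes, which break acyl chains into acetyl-CoA in mitochondria and peroxisomes, were 14 higher and 3 lower of 29, with a median of 0.69. Without the 3 that passed the filter through a single group, 14 were higher and 2 lower of 26. ETFA, an electron carrier subunit, stood at 226, 211 and 277 FPKM in IVF against 32, 35 and 35.7 in SCNT (2.76 ± 0.24, adjusted p = 7.41e-06), but its partner ETFB stood at 6.42, 5.1 and 11.3 FPKM in IVF against 95.3, 46.4 and 82.8 in SCNT (-3.14 ± 0.37, adjusted p = 4.78e-05). The oxidation enzymes HADH (2.79 ± 0.33), HADHA (2.47 ± 0.34) and HADHB (1.21 ± 0.30) and the coactivator PPARGC1A (2.50 ± 0.31) were higher. Acyl-CoA synthetases differed among themselves, with ACSL3 higher (2.85 ± 0.35) and ACSL1 lower (-4.10 ± 0.33, 1.68 to 3.84 FPKM in IVF against 47.4 to 66.6 in SCNT). The list took 0.0833% to 0.0965% of FPKM in IVF and 0.033% to 0.0407% in SCNT.

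Sterol synthesis genes took both directions. HMGCS1, the entry enzyme, stood at 36, 53.6 and 48.6 FPKM in IVF against 5.01, 5.35 and 5.23 in SCNT (2.91 ± 0.29, adjusted p = 1.61e-05). INSIG1, which restrains the pathway, was higher (2.22 ± 0.34), and SQLE (-2.89 ± 0.38) and IDI1 (-1.59 ± 0.27) were lower. In all, 7 were lower and 5 higher of 21, which 1 total per library turned to 6 and 8. The list median was 0.52, above the 0.41 of all genes. Without the 5 that passed the filter through a single group, 5 were lower and 4 higher of 16.

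Among glucose and amino acid transporters, SLC2A5, a fructose transporter, read 0, 0 and 0.1 FPKM in IVF against 33.1, 23.5 and 31.4 in SCNT. The glucose transporter SLC2A3 (-2.64 ± 0.34, 16 to 40 FPKM in IVF against 149 to 225 in SCNT) and the glutamine transporter SLC38A1 (-3.64 ± 0.30) were lower. SLC7A3, a carrier of cationic amino acids, stood at 93.5, 75.3 and 91.3 FPKM in IVF against 13.8, 8.12 and 18.7 in SCNT (2.66 ± 0.32), and SLC7A7, a related carrier, was higher too (2.66 ± 0.33). The list held 8 higher and 5 lower of 18 measured, with 16 members set aside by the filter (6 and 7 with median-ratio scaling). Of the 18, 5 had passed the filter through a single group, SLC2A5 and SLC38A1 among them. Without these 5 the counts were 7 and 3 of 13. In the amino acid stress response, 10 were higher and 10 lower of 25 (7 and 11 with median-ratio scaling), with the serine enzyme PSPH higher (2.43 ± 0.24) and the haem-regulated kinase EIF2AK1 lower (-2.69 ± 0.29). Without the 4 that passed the filter through a single group, 9 were higher and 8 lower of 21.

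Autophagy, the delivery of cell contents to lysosomes, was 10 lower and 6 higher of 31 measured, with a median of -0.47. MAP1LC3B, which coats the growing membrane, stood at 33.8, 53.1 and 59.2 FPKM in IVF against 713, 681 and 637 in SCNT (-3.81 ± 0.26, adjusted p = 1.86e-06). GABARAPL1, of the same family, was lower (-3.23 ± 0.28), and so was VMP1, needed to form the autophagosome (-4.85 ± 0.39, 1.62 to 4.46 FPKM in IVF against 73.2 to 169 in SCNT). ATG12 was called lower as well, but its feature also carries the description of CDO1 and spans other features. GABARAPL2, of the same family as MAP1LC3B, overlapped (adjusted p = 0.146).

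The proton pump of lysosomes had subunits on both sides. ATP6V1D stood at 5.89, 8.62 and 4.76 FPKM in IVF against 237, 193 and 219 in SCNT (-4.90 ± 0.28, adjusted p = 8.04e-07), and ATP6V1G1 was lower (-2.39 ± 0.21). ATP6V1C1 stood at 257, 170 and 224 FPKM in IVF against 28.8, 33.4 and 25.6 in SCNT (2.84 ± 0.26, adjusted p = 1.08e-05). Pump subunits and lysosomal enzymes were 16 higher and 9 lower of 40 (11 and 11 with median-ratio scaling). Without the 7 that passed the filter through a single group, they were 15 higher and 6 lower of 33. In the secretory pathway, ER translocation and N-glycosylation genes were 14 lower and 4 higher of 34 (median -0.52). SEC61G, of the protein channel, stood at 440, 711 and 450 FPKM in IVF against 2636, 3093 and 2470 in SCNT (-2.38 ± 0.23), and the X-linked SSR4 (-3.18 ± 0.33) and MAGT1 (-3.67 ± 0.30) were lower, while SPCS1, of the signal peptidase, was higher (2.09 ± 0.23). Vesicle coat genes were 9 higher and 6 lower of 25 (7 and 8 with median-ratio scaling), with SAR1A (-2.72 ± 0.21) and TMED2 (-3.24 ± 0.30) lower and COPG2 higher (2.70 ± 0.30).

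In 6 signalling lists higher calls outnumbered lower calls, under the scalings tried too, though many members were not called. Higher calls also prevailed over all genes tested, with 37.3% higher and 25.1% lower. The share called higher lay nearest to this in the Hippo list (40.7%) and the mTOR list (44.4%, with 27.8% lower). With median-ratio scaling the mTOR list held 13 higher and 11 lower. BMP and activin signals pass from receptor kinases to SMAD proteins, which enter the nucleus. Of 25 measured members of the TGF-beta, BMP and activin list, 15 were higher and 3 lower, with a median of 1.04, and 14 others were set aside by the filter (14 and 3 of 24 without the member that passed through a single group). The receptors BMPR1B (2.38 ± 0.31) and BMPR1A (2.34 ± 0.37), the ligand BMP6 (2.05 ± 0.33) and the mediators SMAD5 (2.67 ± 0.33), SMAD2 (2.08 ± 0.25), SMAD1 (1.93 ± 0.33) and SMAD3 (1.73 ± 0.35) were higher. SMAD2 stood at 80.3, 91.3 and 76.3 FPKM in IVF against 16.9, 21 and 18.6 in SCNT. The ID genes, known targets of BMP signals that block helix-loop-helix factors, split. ID3 stood at 2637, 1102 and 1736 FPKM in IVF against 508, 241 and 402 in SCNT (2.22 ± 0.35, adjusted p = 0.000283). ID2 stood at 60.5, 51.8 and 82.8 FPKM in IVF against 552, 281 and 264 in SCNT (-2.42 ± 0.32, adjusted p = 0.000102), and ID1 was lower too (-2.50 ± 0.47). BMP4 stood at 5.37 to 15.4 FPKM in IVF against 15.9 to 24.6 in SCNT (adjusted p = 0.0732), called without IVF replicate 3.

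WNT pathway genes were 12 higher and 4 lower of 22 measured, with a median of 1.06, and 15 were set aside. Of the 22, 4 had passed the filter through the libraries of a single group, RSPO3 among them, and without these the counts were 10 and 3 of 18. WNT proteins need WLS to leave the cell, and beta-catenin then acts through TCF and LEF factors. WLS (2.55 ± 0.35) and the relay protein DVL2 (2.68 ± 0.37) were higher. Of the nuclear factors, LEF1 stood at 74.8, 68.1 and 45.1 FPKM in IVF against 5.24, 9.1 and 3.3 in SCNT (3.27 ± 0.36, adjusted p = 3.64e-05), and TCF7 differed by 2.08 ± 0.40. TCF7L2 stood at 15.5, 15.6 and 20 FPKM in IVF against 120, 175 and 130 in SCNT (-2.97 ± 0.27, adjusted p = 9.74e-06). RSPO3, which strengthens WNT signals, stood at 1.61, 10 and 5.2 FPKM in IVF against 0.14, 0 and 0 in SCNT. CTNNB1, beta-catenin itself, stood at 34.2 to 53.1 FPKM in IVF against 22.4 to 38.6 in SCNT (adjusted p = 0.134).

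FGF, RAS and MAPK genes were 17 higher and 6 lower of 36 (median 0.77), and 14 and 5 of 32 without those that passed the filter through a single group. MOS, the kinase that starts the MAPK cascade in eggs, stood at 280, 109 and 221 FPKM in IVF against 21, 15.5 and 13.8 in SCNT (3.44 ± 0.36, adjusted p = 2.24e-05), and MAP2K1, the kinase it acts on, stood at 85.4, 70.8 and 98.9 FPKM in IVF against 8.17, 14.2 and 12.2 in SCNT (2.80 ± 0.29). The feedback inhibitors DUSP1 (-3.14 ± 0.39) and SPRY2 (-2.35 ± 0.33) were lower, DUSP1 at 10.6 to 28.5 FPKM in IVF against 99.1 to 211 in SCNT. In the mTOR list, 16 were higher and 10 lower of 36 (median 0.58), and 12 and 7 of 29 without such members. The Rag GTPases, which report amino acids to mTOR, divided, with RRAGD (2.53 ± 0.28) and RRAGC (2.05 ± 0.31) higher and the X-linked RRAGB lower (-3.36 ± 0.42, 0 to 0.56 FPKM in IVF against 5.93 to 18.3 in SCNT). RRAGD overlaps another gene.

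Hippo genes were 11 higher and 5 lower of 27 measured, with a median of 0.64, and 7 of the 27 had passed the filter through a single group, without which the counts were 6 and 3 of 20. This pathway holds YAP1 and WWTR1 out of the nucleus, where they act with TEAD factors. AMOT, which binds YAP1 at the membrane, stood at 10.5, 14.7 and 10.3 FPKM in IVF against 1.39, 2.24 and 1.34 in SCNT (2.27 ± 0.32). TEAD1 (2.18 ± 0.43), TEAD3 (1.43 ± 0.32) and TEAD2 (1.09 ± 0.34, not called under quantile normalization) were higher and TEAD4, the member known from trophectoderm, lower (0 to 0.21 FPKM in IVF against 5.21 to 9.63 in SCNT, -2.97 ± 0.34). WWTR1 (-2.81 ± 0.34) and CTGF, a known YAP target (-3.24 ± 0.35), were lower, and YAP1 was not called (adjusted p = 0.0775) except without IVF replicate 1 and with 1 total per library. TEAD2, TEAD3, TEAD4 and WWTR1 reached 1 FPKM only in libraries of the group where they were higher, so the filter kept them through that group alone. In the cAMP, calcium and egg activation list, 15 were higher and 3 lower of 32 measured (median 0.72), and 11 and 2 of 22 without those that passed through a single group. ASTL, the egg protease that hardens the egg coat, differed by 3.36 ± 0.33. The phosphodiesterase PDE3B (2.44 ± 0.37) and the kinase subunit PRKACB (1.82 ± 0.29) were higher. Of the calmodulin genes, whose near-identical messages can share reads, CALM3 was lower (-2.28 ± 0.26) and CALM2 was not called (2870 to 4723 FPKM in IVF against 3504 to 4502 in SCNT).

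Among transcription factors, higher calls prevailed in the homeobox list. Of 21 measured homeobox factors, 16 were higher and 2 lower, with a median of 1.51, and 12 were set aside by the filter (13 and 2 of 18 without those that passed through IVF alone). LHX2 stood at 34.6, 24.9 and 25.4 FPKM in IVF against 1.18, 2.05 and 1.16 in SCNT (3.57 ± 0.32, adjusted p = 8.64e-06), and MSX1 stood at 74.7, 77.4 and 57 FPKM in IVF against 10.5, 17.4 and 11.2 in SCNT (2.35 ± 0.29). HESX1, a homeobox repressor, was higher too (2.57 ± 0.36). The list took 0.0457% to 0.0631% of FPKM in IVF and 0.0139% to 0.0175% in SCNT.

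Of 23 measured GATA, SOX and nuclear receptor genes, 16 were higher and 4 lower (median 1.50), and 13 and 3 of 19 without those that passed through a single group. ESRRG, an orphan receptor, stood at 57.6, 56.6 and 40 FPKM in IVF against 7.79, 10 and 10.2 in SCNT (2.33 ± 0.29, adjusted p = 6.32e-05). PPARG, a lipid-sensing receptor (2.80 ± 0.37), NR0B1 (2.22 ± 0.37), GATA2 (1.71 ± 0.35) and GATA3 (1.93 ± 0.44) were higher. The 4 lower genes were NR2F2 (-2.39 ± 0.28), GATA6, a regulator of primitive endoderm (-2.92 ± 0.39, 0.4 to 2.43 FPKM in IVF against 12.6 to 20.9 in SCNT), ESRRB (-1.79 ± 0.41) and NR5A2 (-1.48 ± 0.43, adjusted p = 0.0115), the call of NR5A2 ending without SCNT replicate 3. GATA factors 2, 3 and 6 are therefore not alike in direction, nor are the estrogen-related receptors ESRRB and ESRRG.

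Krüppel-like factors divided with the most abundant called members lower. KLF3 stood at 2.99, 1.33 and 2.09 FPKM in IVF against 94, 75.9 and 95.7 in SCNT (-4.86 ± 0.31, adjusted p = 1.44e-06), and KLF5 (-2.88 ± 0.33) and KLF4 (-2.82 ± 0.24) were lower. KLF7 (2.34 ± 0.35), KLF11 (1.81 ± 0.33) and KLF12 (1.80 ± 0.34) were higher, and KLF17 stood at 155 to 359 FPKM in IVF against 313 to 642 in SCNT (adjusted p = 0.0603), a difference that was called without SCNT replicate 2. In all, 5 were lower and 4 higher of 12 measured KLF and SP factors (median -0.72, and 4 each with 1 total per library). KLF7 had passed the filter through IVF libraries alone, and without it 5 were lower and 3 higher of 11. Several immediate early genes, which answer growth signals within minutes, were lower, with IER2 at 0, 0.16 and 0.38 FPKM in IVF against 29.3, 17.7 and 25.2 in SCNT (-4.39 ± 0.33), and IER3 (-3.10 ± 0.35), EGR1 (-1.80 ± 0.35) and MYC (-1.74 ± 0.38) lower. FOSL2, of the AP-1 family, was higher (2.34 ± 0.32) and MAX, the partner of MYC, lower (-2.49 ± 0.33). The AP-1, EGR, MYC and E2F list as a whole held 11 higher and 7 lower of 27, turned to 6 and 7 with median-ratio scaling. Of the 27, 5 had passed the filter through a single group, IER2 among them. Without these 5 the counts were 9 and 6 of 22.

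The wider transcription machinery showed no common direction. Of 155 measured ZNF zinc finger genes, 44 were higher and 44 lower, with a median of -0.01 and 68 others set aside, and with median-ratio scaling 40 were higher and 55 lower. Without the 19 that passed the filter through a single group, 39 were higher and 35 lower of 136. ZNF394 stood at 9.64, 4.1 and 14.7 FPKM in IVF against 261, 165 and 293 in SCNT, and lies inside another gene, and ZNF2 stood at 36.4, 52.6 and 44 FPKM in IVF against 2.04, 4.99 and 1.61 in SCNT. Mediator and Integrator subunits were 15 lower and 14 higher of 41 (13 and 15 with 1 total per library), with MED28 (-3.78 ± 0.32), the X-linked MED12 (-3.19 ± 0.37) and CCNC (-3.38 ± 0.33) lower and INTS12 higher (2.38 ± 0.23). Chromatin remodeller subunits were 16 higher and 14 lower of 46 (10 and 16 with median-ratio scaling), with BAZ1A (-2.54 ± 0.28), CHD1 (-2.63 ± 0.40), MTA2 (-2.42 ± 0.33) and ACTR5 (-2.47 ± 0.35) lower, and the histone-binding protein RBBP7, at 405 to 763 FPKM in IVF against 364 to 557 in SCNT, not called (adjusted p = 0.348). Without the 3 that passed the filter through a single group, MTA2 and ACTR5 among them, 15 were higher and 12 lower of 43. Actin genes and their regulators were 19 higher and 8 lower of 45 (15 and 15 with median-ratio scaling), with the actin-severing protein DSTN (3.04 ± 0.22) and PFN2 (2.43 ± 0.29) higher and the myosin light chain MYL6 lower (-3.58 ± 0.24).

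Of the lists left aside here, the maternal one held 37 higher of 40 and the cytosolic ribosomal one 75 lower of 79. Oocyte and embryo markers were present in all 6 libraries, with BMP15 at 872 to 1593 FPKM in IVF against 186 to 205 in SCNT. Of 14 identity genes, 10 were higher in IVF and 3 lower, and KLF17 was not called.

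Genes known from other cells were read as well. Of 14 measured fibroblast genes, 7 were lower in IVF and 2 higher. Without the 2 that passed the filter through SCNT libraries alone, SPARC among them, 6 were lower and 2 higher of 12. The 11 defining fibroblast genes, none of them at 0 in all 6 libraries, summed to 18.4 to 39.3 FPKM in IVF against 114 to 172 in SCNT. SPARC, a matrix protein, stood at 0.52, 0.59 and 0.94 FPKM in IVF against 50.6, 29.5 and 23.6 in SCNT, while the fibroblast markers THY1, COL1A1, COL1A2, COL3A1 and VIM stayed under 6 FPKM in every library and THY1 under 1. LUM, a matrix proteoglycan, was highest in SCNT replicate 2 at 29.2 FPKM and under 6 FPKM elsewhere. The matrix gene FBN1 was higher in IVF (2.33 ± 0.45). In pooled embryos, fewer cells of a type and less RNA per cell cannot be told apart.

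The 5 cumulus and granulosa markers found summed to 92.3 to 157 FPKM in IVF against 10 to 20.8 in SCNT, with HAS2, which makes hyaluronan, and STAR holding nearly all of it and FSHR and CYP19A1 under 1 FPKM in every library. STAR stood at 86.6, 41.2 and 49.8 FPKM in IVF against 5.08, 11.1 and 6.15 in SCNT (2.82 ± 0.37). The 5 sperm markers found summed to 66.8 to 89.2 FPKM in IVF against 24.1 to 41.7 in SCNT, with LDHC higher (3.54 ± 0.28) and CRISP2 lower (-3.09 ± 0.36). The 4 defining blood markers summed to 7.11 to 11.8 FPKM in IVF against 1.23 to 2.34 in SCNT, with HBB under 1 FPKM in every library. The alpha globin HBA was lower in IVF (-2.88 ± 0.33) and the leukocyte gene PTPRC higher (2.03 ± 0.45). Summed over all 11 blood features found, the direction was opposite, with 18.5 to 28.3 FPKM in IVF against 73.5 to 147 in SCNT. Of 8 blood features measured, 3 were higher in IVF and 2 lower, turned to 1 and 2 with median-ratio scaling. Without the 4 that passed the filter through a single group, PTPRC among them, 1 was higher and 2 lower. The part of these cells in the gene lists above was not tested.

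Lastly, the calls were set against what the files give on each gene's place. Of 698 X-linked genes, 28.7% were higher in IVF and 37.0% lower, and of 13428 autosomal genes 37.8% were higher and 24.5% lower. The medians were -0.19 and 0.43. For X-linked genes with a symbol, 336 in all, the median was 0.09, with 32.4% higher and 36.0% lower. Lower calls outnumbered higher calls on the X under each of 4 other scalings, by 33.5% to 30.2% at the closest, and among the 159 X-linked genes of middle level (mean FPKM between 3.77 and 9.62) the shares were 36.5% and 35.2%. Embryo sex was not in the labels, and its part was not tested. Autosomes ranged in median from 0.07 on chromosome 18 to 0.87 on chromosome 28.

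Calls also followed the genomic span of Ensembl genes. Ensembl genes were put in 5 groups of equal size by span. In the group with the shortest spans, up to 5847 bp, 28.6% were higher in IVF and 35.8% lower, and in the group over 69268 bp 54.4% were higher and 14.5% lower. The shares moved stepwise in between, with medians of -0.11, 0.19, 0.33, 0.61 and 1.06. Without the maternal, cytosolic and mitochondrial ribosomal lists, the group of shortest spans had 29.5% higher and 33.6% lower and the longest 54.5% and 14.4%. Among genes of middle level, bounded as above, they were 33.8% and 34.0%, and 54.2% and 16.4%. These shares are descriptions over genes of the same libraries, and the part of gene length in the list counts was not tested. Unannotated loci, 3243 in all, were 30.4% higher and 22.2% lower.

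**Figure D4:**
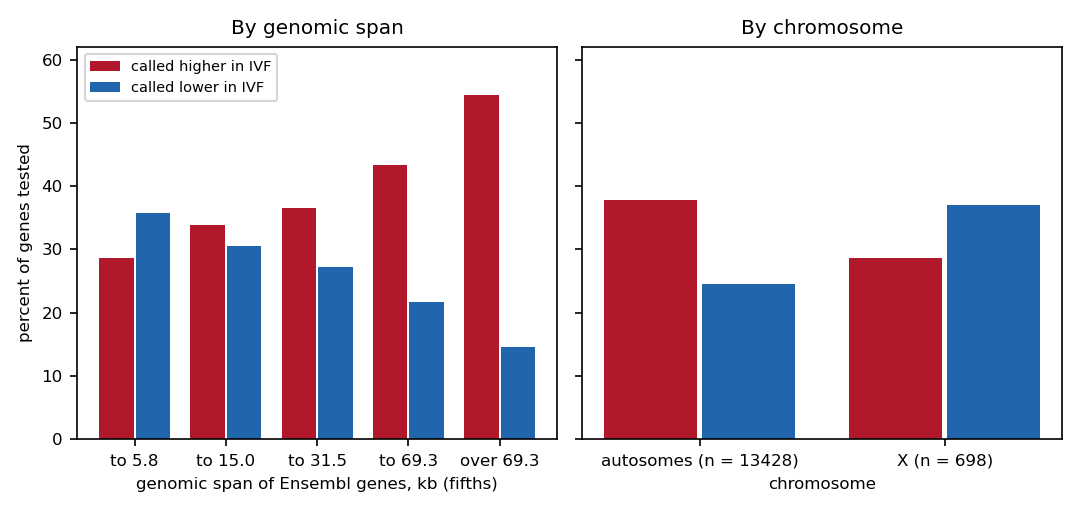
The left panel gives the percent of Ensembl genes called higher (red) and lower (blue) in IVF in 5 equal groups by genomic span, and the right panel the same for autosomes and the X chromosome. The red bars climb from 28.6% to 54.4% with span, and on the X the blue bar, 37.0%, is above the red.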

How the data were processed

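RNA of pools of 8 embryos was made into cDNA, tailed with poly(A), amplified, fragmented and sequenced, per the labels' protocols. RSEM 1.2.12, Bowtie2 2.2.5, StringTie 1.0.4, HISAT 0.1.6, bcl2fastq 2.16 and build UMD3.1 are listed, without roles, per the submitters' processing notes. The deposited values are FPKM for 21258 features, per the file headers, with no read counts. Reads assigned by length-scaled estimates can be split between near copies, and a feature without counts has no known precision.

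Features with at least 1 FPKM in at least 2 of the 6 libraries were tested as log2(FPKM + 1) with limma 3.58.1 in R 4.3.3 (limma-trend, robust moderation, 6 libraries, 2 group means), two-sided, adjusted by Benjamini-Hochberg over all 14166 and called under 0.05. The code was tested on simulated data. Samples were grouped by their titles. Of the features, 14136 had symbols in the files, 324 took a name through their RefSeq accession from an ARS-UCD2.0 gene table and 13 mitochondrial ones from descriptions. Coordinates are those of the files.

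The genes and lists were chosen with earlier results of these data known. Genes were named by rule: the 15 largest rises and 15 largest falls among called, non-overlapping genes that have a symbol and a mean of at least 20 FPKM in the higher group, outside the maternal and ribosomal lists, the 4 smallest p and the most abundant gene not called in each list, the 10 most abundant genes per group, genes under 0.1 FPKM throughout a group and at 20 or more throughout the other, and the 3 most abundant markers of each other cell type. Further genes, chosen after their values were seen, were PAICS, GART, CAD, UMPS, MTHFD1, TYMS, PDHA1, PDHX, PDK1, PDK3, SUCLG2, LDHB, HADHA, HADHB, ACSL3, PPARGC1A, TEAD1, TEAD2, TEAD3, YAP1, PIWIL1, PIWIL2, PIWIL3, TUBG1, GATA2, GATA3, ESRRB, NR5A2, NR0B1, KLF11, KLF12, MYC, FOSL2, EGR1, ID1, ID3, SPRY2, SLC2A3, BMPR1A, BMP6, IGF2BP2, RSPO3, SMAD1, SMAD3, TCF7, KPNA7, KPNA1, CUL1, CUL3, CUL4A, CUL4B, CUL5 and YTHDF3. Lists were counted, not tested as sets. Alternatives changed the pseudocount, scaling, filter, libraries, moderation, block and each replicate. List counts without members that passed the filter through a single group, and alternatives for the X chromosome and genomic span, were chosen after seeing the data. Promoter letters and exon content were not analysed here. A few genes are not reported here.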

Additional observations from a re-analysis of the deposited data

How the results depend on the processing

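With 17 alternative settings, genes called higher in IVF numbered 3212 under the stricter filter (at least 5 FPKM in at least 3 libraries, which tests fewer genes) against 5282, and the share of called genes that were higher was 49.2% with median-ratio scaling against 59.8%. Leaving out each replicate gave 4402 to 5286 higher, 3071 to 3382 lower and a share of 58.7% to 61.0%. Deviations of libraries with the same replicate number correlated at 0.064, 0.095 and 0.027. The same number was the best match for IVF replicates 1 and 2, and IVF replicate 3 correlated best with SCNT replicate 1 (0.072). With 3 libraries per group these values cannot decide whether the numbers pair the samples. A replicate block gave 5303 higher, 3608 lower and 59.5%. Leaving out a replicate turned the balance of higher and lower calls in 8 of 46 lists: Mediator and Integrator, remodellers, nuclear pore and transport, break repair, cohesin and kinetochore, sterol synthesis, the citric acid cycle and blood markers. The libraries were IVF replicate 3 in 6 lists, SCNT replicate 3 in 5, SCNT replicates 1 and 2 in 3 each, IVF replicate 2 in 2 and IVF replicate 1 in 1. Of the 92 list counts, 18 moved by over 1.5 times under median-ratio scaling, 18 under the stricter filter and 9 without SCNT replicate 3. Median-ratio scaling turned the balance of calls in 12 lists, the most of any setting. No call of a named gene turned direction. Calls were lost somewhere for MGC148328, LOC781841, CD3E, TEAD2, NR5A2 and the thymosin beta-4 feature, the last only under quantile normalization, which by construction gives the top gene of every library the same value. Calls were gained under at least 1 setting by KLF17, BMP4 and POLR3K (4 settings each), YAP1, EXOSC8 and GTSF1 (2 each), and MRPL20, RBBP7, FBXO5, GABARAPL2, CALM2, CUL4A and CUL4B (1 each, a scaling). Depth cannot be read from FPKM, so absence of low genes is not shown.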
